A study of Mus musculus with 7 samples.

Results

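The genes described here are 38 genes of protein folding in the endoplasmic reticulum (ER), chosen by name for their known place in the secretory pathway, out of 25370 genes that could be tested. They comprise sensors and transcription factors of the unfolded protein response, chaperones, disulfide enzymes, genes of ER-associated degradation, the translocation channel, and enzymes that cleave newly made secretory proteins. All 38 had at least 1 probe (50 probes in all), all 38 passed the filter on dim signals, and all 38 were well above background on all 7 arrays with no saturated spot.

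The cells were ILC2s, the type 2 branch of the innate lymphoid cells, which carry no antigen receptor and release large amounts of type 2 cytokines. Wild-type mice were Gfi1+/+, and knockout mice were Gfi1GFP/GFP, carrying a GFP cassette in both copies of Gfi1, a gene for a transcriptional repressor. The cassette removes the function of Gfi1 in every cell of the animal and reports the activity of its promoter. Both groups received IL-25 daily for 4 days. On day 5 their mesenteric lymph nodes were sorted for lineage-negative cells positive for Sca-1, ICOS, CD127 and c-Kit. The sorted cells were then cultured for 6 days with IL-2 (50 ng/ml), IL-7 (10 ng/ml) and IL-25 (50 ng/ml), so the RNA is that of expanded cells. Each of the 4 wild-type samples pooled 3 mice and each of the 3 knockout samples pooled 6. The age of the mice is not given in the sources used here.

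Proteins destined for secretion enter the ER through the Sec61 channel, lose their signal peptide, and fold with the help of chaperones such as BiP and of enzymes that form disulfide bonds. Chains that fail to fold are moved back to the cytosol and destroyed. When unfolded chains build up, the sensors IRE1, ATF6 and PERK start the unfolded protein response, in which spliced XBP1 and cleaved ATF6 switch on the genes of this folding machinery. IRE1 and XBP1 are known above all from cells with a heavy secretory load, such as plasma cells and eosinophil precursors, and ILC2s also secrete in bulk.

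On every array the ILC2 sample was labelled red and a universal mouse reference RNA green. Unless the sample channel is named, values are log2 ratios of red over green. A difference is knockout minus wild type, and values are listed for wild-type arrays 1 to 4 and then knockout arrays 1 to 3. A gene was called where limma's p, adjusted by Benjamini-Hochberg over all 25370 tested genes, was under 0.05. Between 67.4% and 80.9% of probes were well above background on an array. Precision is limited by having only 7 arrays. The labels describe each sample as its own pool of mice. In such bulk samples, fewer cells of a type and less RNA per cell cannot be told apart. All 12 ILC2 markers checked were above background on every array. The Gfi1 probe read 2.02 ± 0.23 (SD, n = 4) in wild type and 4.28 ± 0.02 (SD, n = 3) in knockout. The allele keeps the promoter active, so this probe checks no label, and the directions rest on the labels.

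The arrays also differed in ways the groups do not explain. Wild-type arrays 1 and 2 and knockout arrays 1 and 2 had Xist below Ddx3y, whereas wild-type arrays 3 and 4 and knockout array 3 had Xist above Ddx3y (Xist is expressed from the inactive X and Ddx3y from the Y chromosome). The arrays came from 3 slides. Slide 1 held wild-type array 4 and knockout array 1, slide 2 held wild-type array 1 and knockout arrays 2 and 3, and slide 3 held wild-type arrays only. The scanner's quality result was "evaluate" for knockout array 3 and in range for the other 6.

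Of the 38 genes, 7 were called, 1 higher and 6 lower in knockout ILC2s, or 18.4%, beside 7.5% of all tested genes (3.27% higher and 4.23% lower). With each array's ratios centred on their median in place of the loess fit, 3 of the 38 were called (7.89%), near the share of all tested genes (6.36%). The gene that rose was Derl3. Those that fell were Furin, Pdia3, Syvn1, P4hb, Ssr1 and Ssr3. Except for Derl3 and Furin, each called difference was between -0.57 and -0.45. The median difference of the 38 was -0.19, and 28 of them (73.7%) had a negative difference, beside a median of -0.01 and 54% negative over all tested genes. In 14 genes every knockout array lay below every wild-type array and in 1 gene every knockout array lay above, where 10.2% and 8.07% of all tested genes did so (18.2% in all). Before adjustment, p was under 0.05 for 14 genes with a negative and 1 with a positive difference, beside 10.5% and 9% of all tested genes (19.5% in all). The 95% interval of the difference comes from the same fit, so it repeats that count. It lay wholly below 0 for 14 genes and wholly above 0 for 1, and included 0 for 23. Of the 31 genes not called, 29 had intervals inside -1 to 1, so a change by more than that lies outside the interval for nearly all of them. Which smaller changes lie outside differs by gene, since the half-width of the interval ran from 0.17 to 0.74 over the 38.

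**Figure D1:**
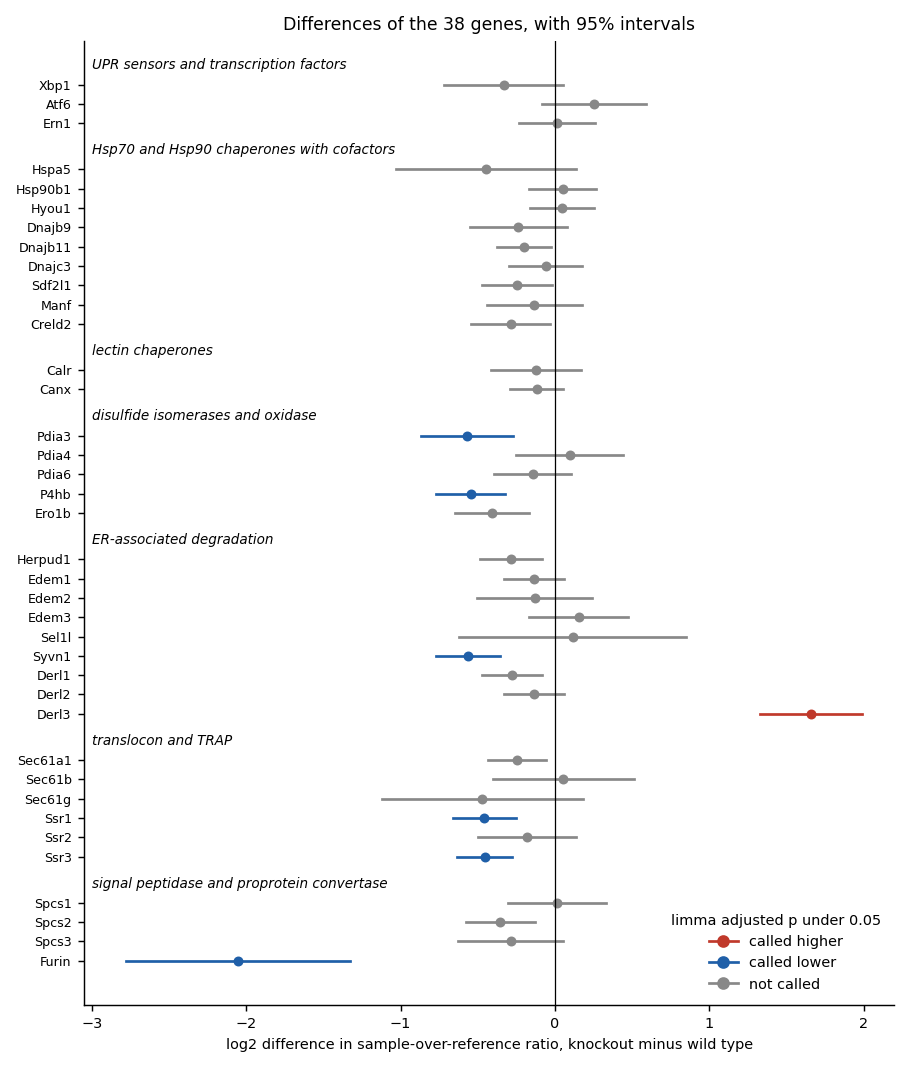
Log2 difference in the sample-over-reference ratio, knockout minus wild type, for each of the 38 genes, grouped by role, with points for the fitted difference and bars for its 95% interval (n = 4 wild-type and 3 knockout arrays). Derl3 stands alone on the right at 1.66, Furin lies far to the left at -2.05, and most other points sit between -0.57 and 0.25 with a shift to the left of 0.

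None of the 3 sensors and transcription factors among the 38 was called, and their median difference was 0.01. Xbp1, which encodes the transcription factor activated when IRE1 splices its mRNA, read -0.82, -0.78, -1.15 and -1.13 in wild type and -0.95, -1.27 and -1.69 in knockout. The groups overlapped, with knockout array 1 inside the wild-type range and knockout array 3 lowest of all 7. The difference was -0.33 (95% interval -0.72 to 0.05, adjusted p = 0.339). Whether the probe separates spliced from unspliced Xbp1 mRNA is not given in the sources used here. Within the 4 arrays with low Xist the Xbp1 difference was -0.31 and within the 3 with high Xist it was -0.55. With the Xist pattern as a block, an alternative chosen after seeing the data, it was -0.41 and passed the threshold (adjusted p = 0.0399). Within slide 1 the sign turned (0.18), while slide 2 gave -0.66.

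Atf6 encodes a membrane-bound factor that is cut in the Golgi to release its active part. It read 0.04, 0.13, 0.63 and 0.21 in wild type and 0.74, 0.38 and 0.39 in knockout. Wild-type array 3 lay among the knockout values, and the difference of 0.25 was not called (95% interval -0.09 to 0.59, adjusted p = 0.424). Ern1, which encodes IRE1α, the kinase and RNase that splices Xbp1, read 1.80, 1.77, 2.01 and 1.78 in wild type and 1.68, 1.81 and 2.07 in knockout. Its groups covered the same range, with a difference of 0.01 (95% interval -0.24 to 0.26, adjusted p = 0.976). The interval of Ern1 reached no further than 0.26 from 0.

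The Hsp70 and Hsp90 chaperones with their cofactors gave no call among 9 genes, with a median of -0.20 and 7 negative differences. Hspa5 encodes BiP, the main ER chaperone of the Hsp70 family and the usual readout of the unfolded protein response. It read -0.37, -0.10, -0.32 and -0.73 in wild type and -0.26, -0.70 and -1.51 in knockout. Knockout arrays 1 and 2 were within the wild-type range and knockout array 3 stood far below it. The difference of -0.44 had the interval -1.03 to 0.14 (adjusted p = 0.412). The sample channel of Hspa5 gave another picture, with log2 signals of 15.87 to 16.01 on the 4 wild-type arrays and of 15.55, 15.42 and 15.42 in knockout. There the groups did not overlap and the difference of -0.49 was called (adjusted p = 0.00793).

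Dnajb11, a cofactor that delivers unfolded chains to BiP, had the smallest p of these 9. It read 1.66, 1.75, 1.59 and 1.70 in wild type and 1.41, 1.48 and 1.54 in knockout. All 3 knockout values lay below all 4 wild-type values, but the difference of -0.20 was not called (95% interval -0.37 to -0.03, adjusted p = 0.185). Creld2, a disulfide isomerase-like protein of the same response, also had no overlap, with a difference of -0.29 (adjusted p = 0.197). For Sdf2l1, a partner of Dnajb11, the difference was -0.25 (adjusted p = 0.213). Dnajb9, which restrains IRE1 through BiP, stood at -0.24 (adjusted p = 0.413) and Manf, a BiP-binding secreted factor, at -0.13 (adjusted p = 0.688). Hsp90b1, the ER member of the Hsp90 family (GRP94), Hyou1, the exchange factor and holdase of BiP, and Dnajc3, another BiP cofactor, had differences of 0.05, 0.05 and -0.06. Their 95% intervals together ran from -0.29 to 0.27. Hyou1 was dim, with log2 signals of 6.91 to 7.14 in the sample channel and 7.05 to 7.48 in the reference channel. In the sample channel Dnajc3 read 10.20 to 10.55 and Hsp90b1 15.51 to 15.96. The background correction used here shrinks the ratios of dim probes. The small difference and narrow interval of Hyou1 therefore cannot show that it was unchanged.

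Calnexin and calreticulin, the lectin chaperones that hold glycoproteins while they fold, were not called. Canx read 0.12, 0.02, 0.08 and -0.02 in wild type and -0.03, -0.13 and -0.04 in knockout. The groups were next to each other without overlap, and the difference was -0.12 (95% interval -0.29 to 0.06, adjusted p = 0.477). Calr differed by -0.12 with overlapping groups (95% interval -0.41 to 0.17, adjusted p = 0.702).

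Of the 5 genes of disulfide formation, 2 fell and the median was -0.41. P4hb encodes protein disulfide isomerase, the founding member of its family and a subunit of collagen prolyl hydroxylase. It read 0.86, 0.97, 1.01 and 0.86 in wild type and 0.21, 0.37 and 0.56 in knockout. Every knockout array lay below every wild-type array. The difference was -0.55 ± 0.10 (SE), 1.46-fold lower (95% interval -0.77 to -0.32, adjusted p = 0.0101), and P4hb was called with each array left out in turn. The call was lost with slide as a fixed block (adjusted p = 0.109) and kept with slide as a random block (adjusted p = 0.00925). The P4hb difference was -0.66 within slide 1 and -0.39 within slide 2, where the sign was fixed by the lack of overlap.

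Pdia3 encodes ERp57, which works with calnexin and calreticulin on glycoproteins. It read 1.71, 1.95, 1.97 and 1.89 in wild type and 1.61, 1.04 and 1.29 in knockout. The highest knockout value was just under the lowest wild-type value. Pdia3 fell 1.48-fold (difference -0.57 ± 0.13, SE, adjusted p = 0.0311). The call is the least firm of the 7, since it held in 2 of the 7 fits that left out 1 array (adjusted p from 0.00819 to 0.0957) and was lost on leaving out any of wild-type arrays 2, 3 and 4 and knockout arrays 2 and 3.

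Ero1b encodes an oxidase that passes oxidising equivalents to protein disulfide isomerase. It read 2.2, 2.19, 2.53 and 2.39 in wild type and 2.02, 1.80 and 1.93 in knockout. The groups did not overlap, the difference was -0.41 (95% interval -0.65 to -0.17), and the adjusted p of 0.05002 lay just above the threshold. In the sample channel alone the difference was -0.50 and was called (adjusted p = 0.0123). The other isomerases were not called. Pdia6 differed by -0.14 (adjusted p = 0.559, second probe -0.21) and Pdia4 by 0.09 (adjusted p = 0.819), both with overlapping groups.

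**Figure D2:**
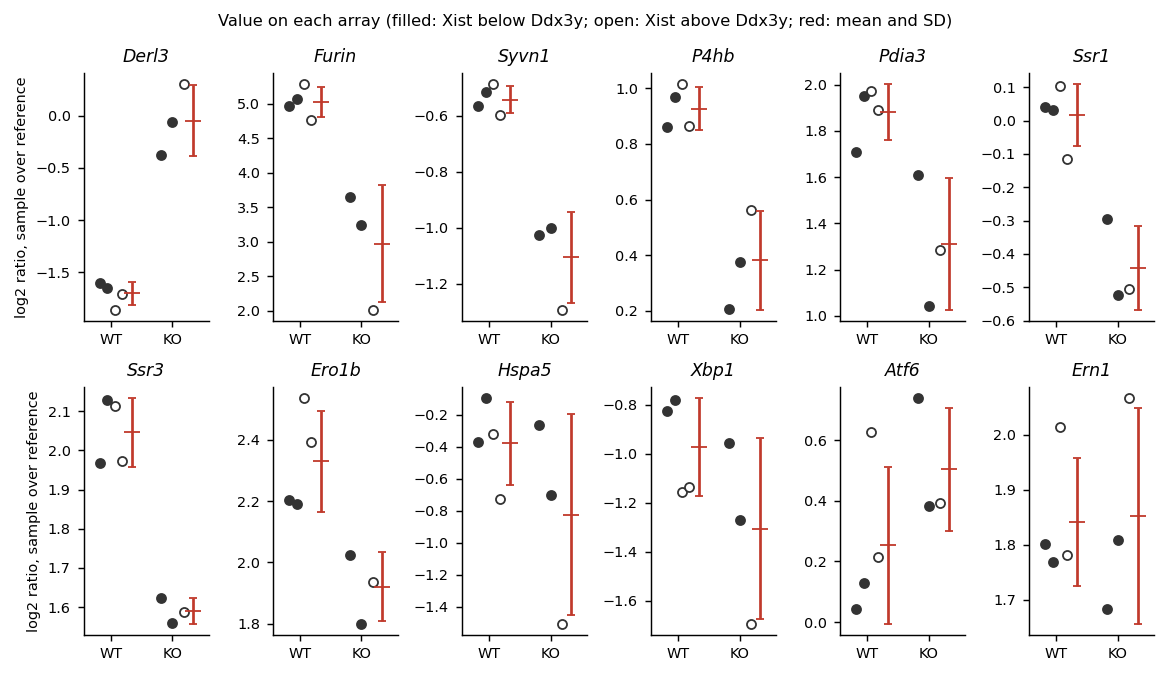
Log2 ratio of sample over reference on each array for 12 of the genes, wild type (WT, n = 4) and knockout (KO, n = 3), with the mean and SD in red beside the points, filled points for arrays with Xist below Ddx3y and open points for those above, and a y axis of its own for each gene. The groups are apart for the 7 called genes and for Ero1b, while Hspa5, Xbp1, Atf6 and Ern1 overlap, with the low knockout value of Hspa5 and of Xbp1 on the open point.

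ER-associated degradation held the 1 rise among the 38, in a group of 9 genes with 1 higher, 1 lower and a median of -0.13. Derl3 encodes a Derlin, a membrane protein through which misfolded chains leave the ER, and is known for its restricted expression in secretory cells such as plasma cells. It read -1.60, -1.65, -1.86 and -1.71 in wild type and -0.38, -0.06 and 0.30 in knockout. The wild-type arrays spanned a narrow range that no knockout array came near. Derl3 was 3.16-fold higher in the knockout (difference 1.66 ± 0.15, SE, 95% interval 1.33 to 1.99, adjusted p = 0.000253). It was higher within slide 1 (1.33) and within slide 2 (1.72), within the low-Xist arrays (1.41) and within the high-Xist arrays (2.08). The sample channel showed the same size (1.65, adjusted p = 0.000388), the reference channel differed by -0.01, and Derl3 was called under every alternative run.

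Because Derl3 is rich in plasma cells, their markers were read beside it. The summed sample-channel level of 11 B and plasma cell markers was higher in knockout without overlap, 28829 to 34400 against 24139 to 28092 in wild type, in normalized intensity units. Of these markers, 1 was called higher, Irf4 (difference 2.69), a transcription factor that ILC2s also express. Jchain, Sdc1, Mzb1 and Cd79a differed by 0.16, 0.35, 0.21 and 0.17 and were not called. With Irf4 left out, a choice made after its value was seen, the sums of the other 10 ran from 22458 to 26644 in wild type and from 21838 to 24061 in knockout. The part of such cells in the Derl3 difference was not tested.

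Syvn1 encodes HRD1, the ubiquitin ligase at the centre of the retrotranslocation complex. It read -0.57, -0.52, -0.49 and -0.60 in wild type and -1.03, -1.0 and -1.29 in knockout. All 3 knockout arrays were clearly under the tight wild-type group. Syvn1 fell 1.48-fold (difference -0.56 ± 0.09, SE, 95% interval -0.77 to -0.36, adjusted p = 0.00613) and was called with each array left out in turn. Sel1l, the partner that holds HRD1 stable, was the most scattered of the 38 within wild type, from -1.27 to -0.20. Its difference of 0.12 had an interval of -0.62 to 0.85, too wide to tell a fall from a rise.

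The other Derlins were not called. Derl1 read 1.24, 1.28, 1.39 and 1.22 in wild type and 0.89, 1.01 and 1.11 in knockout. Its groups did not overlap, but the difference was -0.28 (adjusted p = 0.0934). A second Derl1 probe gave -0.45, with an adjusted p over all probes of 0.0129. Derl2 differed by -0.13 (adjusted p = 0.471), and its other probes by -0.12 and -0.003. Herpud1, which organises the HRD1 complex and is strongly induced by ER stress, showed no overlap and a difference of -0.28 (adjusted p = 0.103), and was called in the sample channel alone (-0.42, adjusted p = 0.0329). The mannosidase-like proteins Edem1, Edem2 and Edem3, which mark glycoproteins for destruction, had differences of -0.14, -0.13 and 0.15 and were not called (adjusted p = 0.454, 0.757 and 0.648). For Edem2 the 3 knockout arrays read 3.39, 3.55 and 4.20, on both sides of a wild-type range of 3.82 to 3.88. Without knockout array 3 the Edem2 difference was -0.37 and was called (adjusted p = 0.0415).

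The ER stress response element (ERSE) is the promoter sequence through which ATF6 and XBP1, with the CCAAT-binding factor NF-Y, act on chaperone genes, so the promoters of the 38 genes were searched for it. RefSeq promoter windows (GRCm38.p6, 250 bases before to 50 after the start site) were at hand for 31 of the 38. Those without a window were Atf6, Hyou1, Manf, Derl1, Sec61a1, Ssr2 and Spcs3. The motifs and the genes shown were chosen after the expression values had been seen, and both strands were read. The ERSE (CCAAT, 9 bases of any kind, then CCACG) was present in 10 of the 31 genes (32.3%) and in 0.137% of 27025 genes with windows of the same length. ERSE-II (ATTGG, 1 base of any kind, then CCACG), which shares the letters CCACG with it, was in 2 of 31 (6.45%) against 0.0444%. The XBP1-binding core TGACGTGG was in none of the 31 (0.714% of genes). The ATF4 composite TGATGNAAN was in 1 gene, Herpud1 (3.23%, against 4.5%), and the GFI1 core AATCACNGC was in none (1.05% of genes). The ERSE is known as an element of chaperone genes, and the 38 were chosen to include such genes. A share above that of all genes was therefore built into the choice of genes and motif. A match is a description of letters, not a measured binding site.

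The elements of 7 genes are set out letter by letter. Their boxes are alike because the search asked for those letters. Derl3 was called higher and Syvn1 lower, and the other genes, none of them called, had negative differences. Capitals mark the CCAAT or ATTGG box and the CCACG box, and lower case marks the spacer. Each is written in the direction of the element.
Hspa5, chr2:34772025-34772043, plus strand: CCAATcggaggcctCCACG
Calr, chr8:84847075-84847093, plus strand: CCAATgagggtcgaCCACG
Pdia6, chr12:17266491-17266509, plus strand: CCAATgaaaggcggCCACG
Ero1b, chr13:12565682-12565700, minus strand: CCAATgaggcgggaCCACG
Syvn1, chr19:6046532-6046550, plus strand: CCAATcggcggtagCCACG
Derl3, chr10:75893242-75893260, minus strand: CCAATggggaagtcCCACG
Herpud1 (ERSE-II), chr8:94386377-94386387, plus strand: ATTGGgCCACG

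Syvn1, which fell, has its ERSE ending 26 bases before the start site, and Derl3, which rose, has one on the opposite strand 138 bases before it. In Hspa5, which was not called, the element ends 47 bases before the start. The 250 bases upstream of these start sites follow, all on the plus strand, with the boxes of the element in capitals (in Derl3 they read in reverse complement).
Derl3, chr10:75893148-75893397: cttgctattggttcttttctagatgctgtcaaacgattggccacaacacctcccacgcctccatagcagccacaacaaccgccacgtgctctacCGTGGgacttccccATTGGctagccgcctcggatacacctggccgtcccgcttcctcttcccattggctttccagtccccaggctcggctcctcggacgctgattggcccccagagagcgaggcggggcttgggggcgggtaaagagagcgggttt
Syvn1, chr19:6046326-6046575: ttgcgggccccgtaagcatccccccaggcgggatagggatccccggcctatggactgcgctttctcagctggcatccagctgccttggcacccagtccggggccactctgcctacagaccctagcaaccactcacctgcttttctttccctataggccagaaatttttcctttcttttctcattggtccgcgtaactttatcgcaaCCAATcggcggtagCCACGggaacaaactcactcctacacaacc
Hspa5, chr2:34771840-34772089: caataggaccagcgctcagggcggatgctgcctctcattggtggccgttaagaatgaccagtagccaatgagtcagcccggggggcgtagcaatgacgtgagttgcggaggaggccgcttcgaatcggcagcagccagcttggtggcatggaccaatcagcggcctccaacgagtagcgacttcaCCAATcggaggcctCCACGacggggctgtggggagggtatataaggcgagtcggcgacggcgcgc

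The other members with an ERSE were Hsp90b1, which has 2, Dnajc3, Creld2 and Canx. Of the 10 members with an ERSE, 1 was called higher and 1 lower, 8 had a negative difference, and the median was -0.13. Of the 21 members with a window and no ERSE, 5 were called lower and none higher, with a median of -0.24. Of 27 genes outside the 38 that carry the element, only 11 were tested. Among these, 2 were called, both higher, Ptgdr2 (2.60) and Acacb (0.98), and the median was 0.05. Over all tested genes, 3.27% were called higher and 4.23% lower (7.5% in all). With so few genes, and a motif chosen after the values were seen, these counts give no direction for genes with the element.

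In the translocation channel and the TRAP complex, 2 of 6 genes fell and the median was -0.35. Ssr3 and Ssr1 encode the gamma and alpha subunits of TRAP, which sits beside the Sec61 channel and helps some chains to enter. Ssr3 read 1.97, 2.13, 2.11 and 1.97 in wild type and 1.62, 1.56 and 1.59 in knockout. Both groups were tight and well apart. Ssr3 fell 1.37-fold (difference -0.45 ± 0.08, SE, adjusted p = 0.00835), was called with each array left out in turn, and a second probe gave -0.39 (adjusted p over probes 0.0620).

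Ssr1 read 0.04, 0.03, 0.10 and -0.11 in wild type and -0.30, -0.52 and -0.50 in knockout, again without overlap. It fell 1.37-fold in the ratio (difference -0.46 ± 0.09, SE, adjusted p = 0.0159), a call lost without knockout array 2 (adjusted p = 0.0649). Most of that difference was in the reference channel, which was 0.31 higher on the knockout arrays, while the sample channel differed by -0.15 and was not called (adjusted p = 0.654). The other Ssr1 probes gave -0.26 and -0.30 and were not called. Ssr2, the beta subunit, differed by -0.18 (adjusted p = 0.562).

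The channel subunits themselves were not called. Sec61a1, which forms the pore, showed no overlap and a difference of -0.24 (95% interval -0.43 to -0.06, adjusted p = 0.131). Sec61b differed by 0.06 (adjusted p = 0.928). Sec61g read -0.13, -0.12, -0.16 and -0.39 in wild type and -0.23, -0.21 and -1.56 in knockout. Knockout array 3 stood far below the other 6 arrays. The difference was -0.47 (adjusted p = 0.440), and it was -0.10 within the low-Xist arrays and -1.29 within the high-Xist arrays.

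Furin had the widest difference of the 38. It encodes a convertase of the trans-Golgi network that cuts precursors of growth factors, receptors and other secreted proteins at paired basic residues. Furin read 4.97, 5.07, 5.28 and 4.77 in wild type and 3.64, 3.24 and 2.02 in knockout. Every knockout array was more than 1 log2 unit below the lowest wild-type array, and the knockout arrays were spread over a wider range. Furin fell 4.15-fold (difference -2.05 ± 0.32, SE, 95% interval -2.78 to -1.33, adjusted p = 0.0049). The fall was -1.13 within slide 1 and -2.34 within slide 2, and -1.58 within the low-Xist and -3.01 within the high-Xist arrays. Slide as a fixed block gave an adjusted p of 0.085, and slide as a random block gave 0.00363. In the sample channel alone the difference was -1.64 (adjusted p = 0.0343), and the reference channel was 0.41 higher on the knockout arrays.

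The other 3 genes of this group encode the small subunits of signal peptidase, which removes the signal peptide during entry. Spcs2 read 1.94, 1.94, 2.01 and 1.83 in wild type and 1.49, 1.46 and 1.78 in knockout. Its groups did not overlap, with a difference of -0.35 (adjusted p = 0.0659), and it was called in the sample channel alone (-0.38, adjusted p = 0.0491). Spcs3 differed by -0.29 (adjusted p = 0.353) and Spcs1 by 0.01 (adjusted p = 0.977). Knockout array 3 read highest of all arrays for Spcs3 (4.20), and without it the difference was -0.50 and was called (adjusted p = 0.0124). The Spcs2 difference without that array was -0.46 (adjusted p = 0.0187).

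The sample channel alone gave 6 calls among the 38, 1 higher and 5 lower, where 6.54% of all tested genes were called (2.91% higher and 3.63% lower). It was read after normalization steps that use both channels, so the reference still enters through them. Derl3 rose and Furin fell by both measures. Hspa5, Ero1b, Herpud1 and Spcs2 were called lower by the sample channel and not by the ratio, a difference between measures that was not tested. Syvn1, P4hb, Pdia3 and Ssr3 had sample-channel differences of -0.43, -0.46, -0.58 and -0.35 with adjusted p of 0.0524, 0.0621, 0.0666 and 0.0693. The median difference of the 38 was -0.21 in the sample channel and -0.19 in the ratio. Which of the genes outside Derl3 and Furin passed the threshold thus varied with the measure, while their signs were the same.

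**Figure D3:**
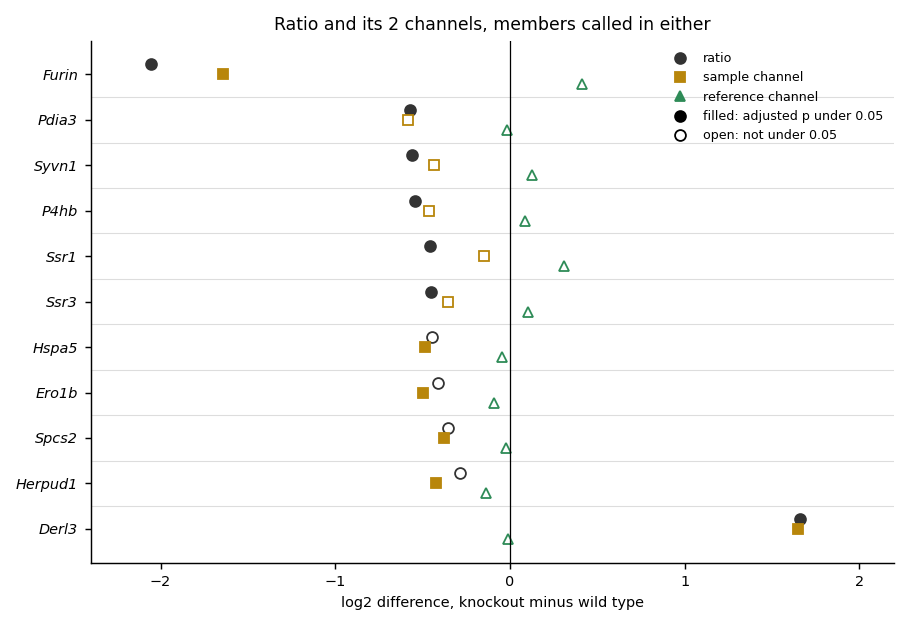
Log2 difference, knockout minus wild type, in the ratio (circles), the sample channel (squares) and the reference channel (triangles) for the 11 genes called by the ratio or by the sample channel, filled where limma's adjusted p was under 0.05. Ratio and sample channel lie on the same side of 0 for all 11, Ssr1 has its sample channel nearest to 0 (-0.15), and Furin and Ssr1 have the reference channel furthest from 0 (0.41 and 0.31).

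These counts varied with how the slide was modelled. With slide as a fixed block, 1.88% of all genes were called (478), and among the 38 only Derl3 (difference 1.55, adjusted p = 0.00663). Slide 3 held wild-type arrays only, so that block compares the groups on slides 1 and 2 alone. With slide as a random block (correlation within slides -0.135), 8 of the 38 were called, 1 higher and 7 lower, beside 2122 of the 25370 tested genes. Whether the slide itself moved these genes was not tested. All 7 called genes had the same sign within slide 1 and within slide 2, as did 25 of the 38, of which 22 were negative in both. For the 7 this was fixed in advance, since every knockout array lay beyond every wild-type array. Only the sizes of their differences within slides carry information. The median of the 38 was -0.15 within slide 1 and -0.16 within slide 2, beside -0.02 and -0.002 for all tested genes. With the Xist pattern as a block, 9 of the 38 were called, 1 higher and 8 lower, beside 9% of all genes (3.94% higher and 5.06% lower). These were the same 7 with Xbp1 and Ero1b (adjusted p = 0.0421). Without knockout array 3, the array whose quality result was "evaluate", 9 of the 38 were called, 1 higher and 8 lower, beside 6.16% of all tested genes (2.65% higher and 3.5% lower), and the median was -0.21. There Pdia3 was no longer called, and Edem2, Spcs2 and Spcs3 were. With median centring the 3 called genes were Derl3, higher, and Furin and Syvn1, lower, and the median of the 38 was -0.11. That scaling called 1614 of all tested genes (3.53% higher and 2.83% lower) and turned the balance of calls, 55.5% of which were then higher, beside 43.6% with loess.

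Markers of other cells also differed between the groups. Among 7 tested stromal and endothelial markers, 3 had positive and 4 had negative differences, with a median of -0.04. Pdgfrb was called higher (1.78, adjusted p = 0.000299), while Ccl19 (-0.24) and Col1a1 (-0.23) were below wild type on every knockout array and were not called. The summed sample-channel level of the list was 4307 to 4879 in wild type and 4934 to 5051 in knockout, without overlap. All 6 tested NK cell and ILC1 markers had positive differences, with a median of 0.46. Of these, Nkg7 was called higher (1.33, adjusted p = 0.00405), and Tbx21 (0.82) and Eomes (0.31) had no overlap and were not called. Of 10 tested T cell markers 8 had positive differences and none was called, with Cd3e (0.39) and Cd8a (0.20) above wild type on every knockout array. Of 5 tested mast cell and basophil markers, Hdc (-0.36, adjusted p = 0.0189) and Cpa3 (-0.51, adjusted p = 0.0402) were called lower.

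The myeloid and dendritic sums were higher in knockout without overlap, 2437 to 2624 against 1955 to 2421, and none of their 6 tested markers was called. The ILC2 marker sums were lower in knockout without overlap, 509778 to 590094 against 639110 to 886029, with 4 of 12 markers called lower and 1 higher. The sums overlapped for T cell markers (14829 to 24853 in wild type, 14772 to 24961 in knockout) and for NK cell and ILC1 markers (76869 to 210332 and 163355 to 213917), and for mast cell and basophil markers they met at the edge (925 to 1164 and 874 to 926). Sums of different lists come from different probes and cannot be set against each other, and each is governed by its brightest probes. Ncr1, Klrk1, S100a8, Fcer1a and Ms4a2 were above background on no array. The part of any of these cells in the results was not tested.

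Further genes of the secretory pathway, from lists drawn up by role, place the 38 among their neighbours. Of 27 other ER folding and redox genes, 7 fell and 1 rose, with a median of -0.29 and 23 negative differences. Ero1a, the other ER oxidase, read 1.61 ± 0.28 (SD, n = 4) in wild type and -0.86 ± 0.27 (SD, n = 3) in knockout, a difference of -2.47, where its paralog Ero1b gave -0.41. P4ha2, the catalytic subunit of collagen prolyl hydroxylase that pairs with protein disulfide isomerase, fell by 1.67 on the log2 scale (adjusted p = 0.000159). Hspa13, an Hsp70 relative of the ER, fell by 0.87 (adjusted p = 0.000929). Fkbp14, a prolyl isomerase, was the one that rose (0.73, adjusted p = 0.00767).

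Of 11 oligosaccharyltransferase genes, which attach sugars to entering chains, 2 fell, Magt1 (-0.57) and Stt3b (-0.45), and 10 of 11 differences were negative (median -0.25). Of 17 genes of transport between ER and Golgi, 2 fell, the cargo receptor Surf4 (-0.40) and the KDEL receptor Kdelr3 (-0.70), with a median of -0.14. None of 15 other targeting and translocation genes and none of 17 other degradation genes was called (medians -0.14 and -0.04). The 16 cytosolic chaperones, which serve folding outside the secretory pathway, had a median of 0.04 and no call, and 10 of them had positive differences.

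Among 10 other sensors, proteases and cofactors of the unfolded protein response, 1 fell, Creb3l2, a membrane-bound relative of ATF6 (-0.64, adjusted p = 0.0048), and the median was -0.09. Eif2ak3, which encodes PERK, differed by -0.17 (adjusted p = 0.395). The ATF4 arm, which PERK shares with sensors of amino acid shortage, had 8 falls and no rise among 16 genes, with a median of -0.65. Its 4 smallest p belonged to Trib3 (-2.21), Ppp1r15a (-0.62), Chac1 (-2.14) and Vldlr (-1.39), of which Vldlr was above background on 2 of 3 knockout arrays. This arm was already known to be lower from earlier results on the same arrays.

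Of 5 other proprotein convertases, Pcsk1, which cuts hormone precursors in secretory granules, fell with Furin. It read 3.64, 3.47, 4.52 and 4.22 in wild type and 2.53, 2.03 and 1.63 in knockout, apart on every array (difference -1.90, adjusted p = 0.0033). The remaining 4 had differences between -0.10 and 0.11. Of 9 secreted ILC2 products, 3 fell, Calca (-0.68), Il6 (-3.02) and Areg (-0.42), with a median of -0.30. Differences of the 9 ran from -3.02 to 1.20, with 7 negative and 2 positive, and none was called higher. Il13, Il4 and Il5, main cytokines of the cell, differed by -0.30, -0.22 and -0.33 and were not called.

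**Figure D4:**
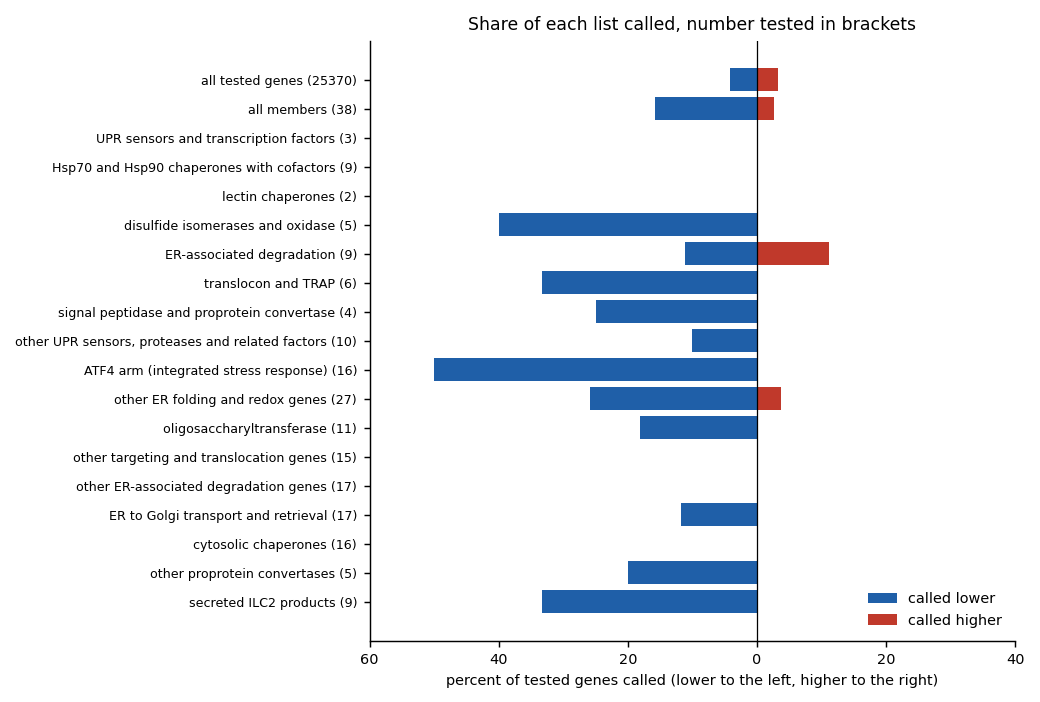
Percent of the tested genes of each list called lower (bars to the left) or higher (bars to the right) in knockout ILC2s, with the number tested in brackets and all tested genes in the top bar. The top bar reaches 4.23% lower and 3.27% higher, 6 of the 38 genes make up the blue bar under it, and 6 lists or groups, among them the Hsp70 and Hsp90 chaperones and the cytosolic chaperones, have no bar.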

How the data were processed

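Per the file headers, the deposited scanner files were written by Agilent Feature Extraction 11.0.1.1 (10.7.3.1 per the submitters' processing notes). They hold median intensity per spot and a log10 ratio of red over green that the authors' scanner software had background-subtracted and dye-normalized. The deposited value table holds log2 ratios, which equalled those log10 ratios turned to log2 within 0.001, and was an alternative. The red channel (Cy5) held the sample on all 7 arrays, never the green, so any dye bias of a probe is shared by the arrays.

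Outlier-flagged spots (2597 outside controls) were left out. Median signals were corrected with normexp (offset 50), which draws dim ratios towards 0, and normalized by loess within arrays with control spots at weight 0, in limma 3.58.1 under R 4.3.3. Probes of 1 accession were named through RefSeq genes (26581 of 39429), and the brightest probe stood for a gene; 10 of the 38 genes had several. A gene entered the test when its red signal was well above background on 3 or more arrays, with 2 or more values per group (lmFit, eBayes, threshold 0.05, no block); 109 tested genes had a missing value. The sample channel alone was read after loess and Aquantile. The array design uses mm9, so coordinates here come from the RefSeq windows alone. Deviations of same-numbered arrays correlated at 0.036, 0.240 and 0.021. Same-numbered wild-type and knockout arrays shared their Xist pattern. Whether the replicate numbers pair samples is therefore not settled, and no pairing was used in the main fit. The fit was tested on simulated data. Figures were drawn with matplotlib 3.10.9.

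The 38 genes and all lists were chosen with earlier results of these data known. Values on every array are given for called genes, Xbp1, Atf6, Ern1, Hspa5, the 10 smallest p and the smallest p of each role, and up to 4 called genes with the smallest p are named from each other list.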

Additional observations from a re-analysis of the deposited data

Results flagged for a closer look

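Wild-type values of 2 genes among the 38 stood apart from the other 3 arrays of their group by more than Dixon's 95% criterion. Ern1 read 2.01 on wild-type array 3, against 1.77 to 1.80 on the other wild-type arrays. Sec61g read -0.39 on wild-type array 4, against -0.16 to -0.12 on the others. With 38 wild-type groups checked, chance alone marks about 1 in 20. Neither gene was called, and knockout groups of 3 arrays were not checked.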

How the results depend on the processing

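The 7 called genes kept their sign under all 26 alternatives (19 settings and 7 fits with 1 array left out). With 1 array left out this was fixed in advance where the probe stayed the same, since their groups did not overlap. The count of called genes among the 38, 7 in the report, was 3 with median centring (1614 genes in all), 1 with slide as a fixed block, 4 with the replicate block and 1 with a minimum log2 change of 0.5, and 5 to 9 with 1 array left out. Over all genes, 1904 in the report, it was 478 with the slide block, 1081 with the replicate block, 210 with the minimum change, 1098 without wild-type array 4 and knockout array 3 together and 1252 to 1887 with 1 array left out, lowest without knockout array 2 (1252) and wild-type array 4 (1265). For the sample channel alone, 6 in the report, it was 3 with Aquantile and no loess, 1 with the slide block, 1 with the replicate block and 2 to 6 with 1 array left out (2 without knockout array 2, 3 without wild-type array 2 or 3). Under the replicate block, P4hb, Syvn1, Derl3 and Furin were still called; the numbers do not pair the samples, so this is no sign of a weaker effect. The median of the 38 ranged from -0.24 to -0.11 over these settings. Aquantile between arrays leaves log ratios unchanged by construction. The causes were not tested. The Xist block and leaving out those arrays together were chosen after seeing the data. With 4 and 3 arrays, the half-width of the 95% interval ran from 0.17 to 0.74 over the 38 genes. A difference smaller than a gene's own half-width could not be called. Larger ones could also go uncalled, because calls use limma's adjusted p. Dnajb11, at -0.20 with an interval wholly below 0, was not called (adjusted p = 0.185).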
